A study of Mus musculus with 6 samples.

Results

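The 8 genes described here encode the anti-inflammatory cytokine IL-10 (Il10), its receptor chains (Il10ra and Il10rb), the transcription factor that carries its signal (Stat3), and 4 cytokine-inducible inhibitors of JAK-STAT signalling (Socs1, Socs3, Cish and Socs2). They were chosen by symbol: 15 of the 22626 non-control probe sets of the Mouse Genome 430A 2.0 array are annotated to them and to no other gene. Bone marrow-derived macrophages of C57BL/6J background, grown in medium conditioned by L929 cells, were taken from IκBβ-knockout and wild-type mice. The 6 groups, with 1 array each, were knockout cells at 0 h, 1 h and 5 h of 1 µg/ml LPS (bacterial lipopolysaccharide, the Toll-like receptor 4 ligand) and wild-type cells at the same 3 times. The 0 h cells had no LPS. The sample names write the knockout as IkB, and its identity as IkappaB-beta comes from the series title and design. The labels give neither the knockout allele nor the age of the mice, nor do they say whether the arrays of a genotype share an animal or a culture.

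IL-10 binds a receptor made of a ligand-specific chain, IL-10Rα, and a chain shared with other cytokines, IL-10Rβ. The kinases JAK1 and TYK2 then phosphorylate STAT3, which enters the nucleus, and in macrophages this pathway restrains inflammatory cytokine production. SOCS proteins carry an SH2 domain that binds phosphorylated receptors or kinases and a SOCS box that recruits a ubiquitin ligase. Their genes are themselves induced by STATs, which closes a feedback loop. SOCS3 acts mainly on gp130-type receptors, SOCS1 on interferon signalling, CIS (the product of Cish) on STAT5-activating receptors, and SOCS2 on the growth hormone receptor.

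Values are MAS5 signals, brightness values on a linear scale that the authors had brought to a common level on each array (trimmed means of 496.9 to 497.7 without the control probe sets). A floor of 18.3, the 25th percentile of the non-control values, replaced lower signals ahead of the log2 step, and a change measured from that floor is a lower bound. Array medians were 117.1, 98.7 and 65.2 in knockout and 113.5, 105.1 and 70.7 in wild type at 0 h, 1 h and 5 h. Nfkbib, the gene of IκBβ, read 30.5, 136 and 56.1 on the knockout arrays and 477, 3330 and 5007 on the wild-type arrays. Xist read 5634, 4189 and 2149 in knockout and 52.1, 80.4 and 62.1 in wild type, while the Y-linked Eif2s3y read 3.27, 0.896 and 10.7 in knockout and 799, 860 and 570 in wild type. Genotype and sex therefore cannot be told apart here. The 8 measured macrophage markers, among them Adgre1, Cd14, Cd68 and Csf1r, summed to 82601 to 89945 on the knockout arrays and 88568 to 90954 on the wild-type arrays. The sum hides opposite courses under LPS. Cd14 read 10304, 19050 and 17307 in knockout and 11290, 18444 and 20444 in wild type. Cd68 read 13151, 12061 and 9675 in knockout and 14699, 12310 and 10318 in wild type. Signals of the T and NK cell markers summed to 46.7 to 115.0 in knockout and 107.6 to 109.5 in wild type.

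Only probe sets brighter than the median of 1 or more of the arrays were tested, 13100 in all. Of the 15 member probe sets 11 passed, and they cover 7 genes, all but Socs2. Among these 11, 6 (Il10, Socs1, the 3 of Socs3 and the dimmest of Stat3) exceeded the array median only on LPS arrays. They were tested because they are high there, so the counts below are a description of the members. LPS changes were estimated with limma from all 6 arrays, with genotype and time as additive terms. The error of an LPS change thus combines the disagreement between the genotypes with a spread that limma draws from all probe sets tested. It does not cover the spread between animals.

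**Figure D1:**
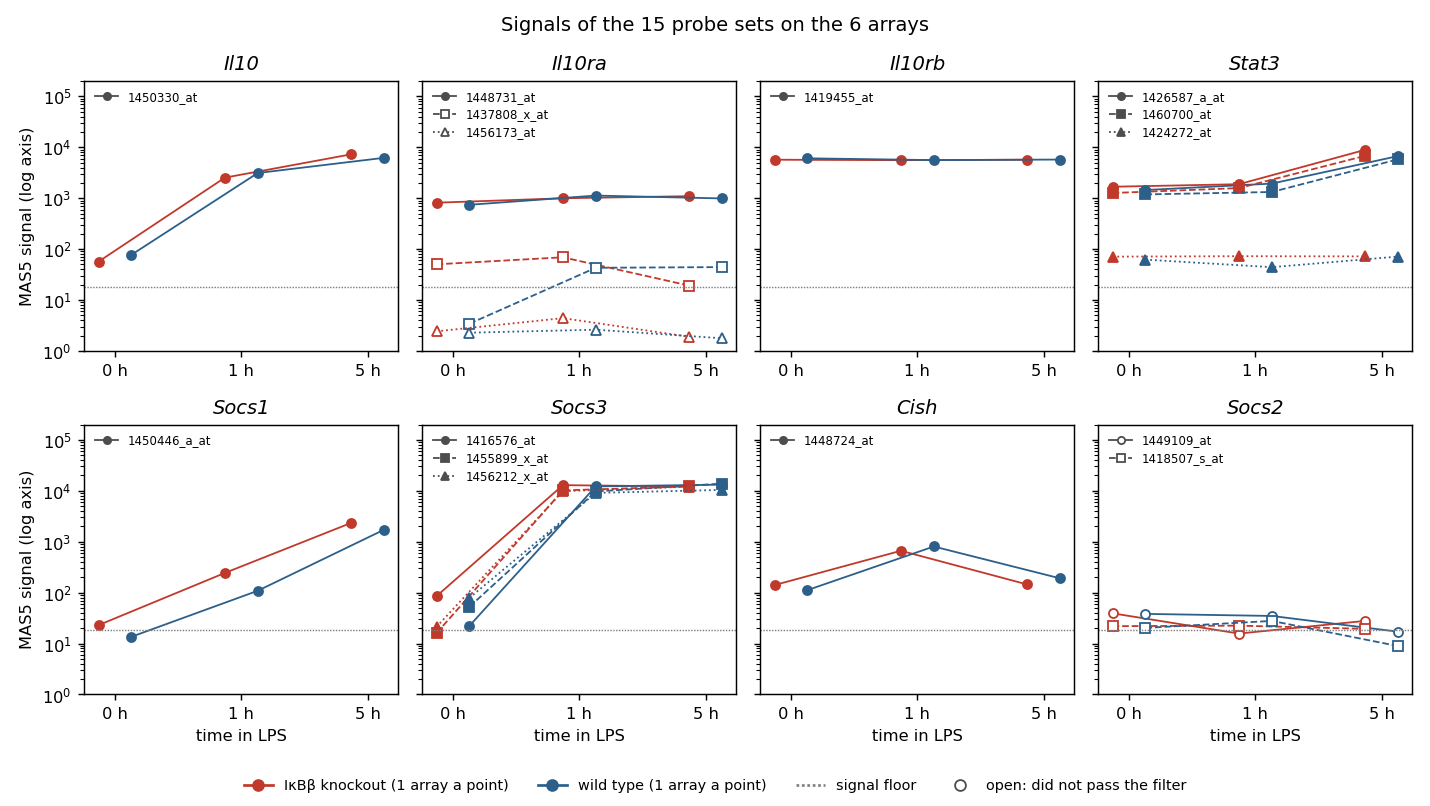
MAS5 signals (log axis) of every probe set of the 8 genes at 0 h, 1 h and 5 h of LPS, with 1 array a point, knockout in red on the left and wild type in blue on the right of each time; open symbols did not pass the filter and the dotted line is the floor of 18.3. Il10, Socs1 and the 3 Socs3 probe sets climbed on both sets of arrays, Cish peaked at 1 h, Il10rb stayed between 5589 and 6075, and both Socs2 probe sets stayed under 40 throughout.

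The 8 genes followed different courses under LPS. At 1 h, 6 of the 11 tested probe sets were called higher than at 0 h (Il10, Socs1, Cish and the 3 of Socs3) and 0 lower, at a Benjamini-Hochberg adjusted p under 0.05. Over all probe sets 5.32% were called higher and 4.61% lower in that comparison. At 5 h against 0 h, 8 were called higher (Il10, Il10ra, the 2 brighter of Stat3, Socs1 and the 3 of Socs3) and 0 lower, against 20.8% higher and 49.8% lower over all probe sets. From 1 h to 5 h, 4 were called higher (Il10, the 2 of Stat3 and Socs1) and 1 lower (Cish), against 19% and 41.9%. The median change of all probe sets tested was −0.17 at 1 h, −0.48 at 5 h and −0.33 between 1 h and 5 h on the log2 scale. Median centring of the arrays moved these to 0.01, 0.28 and 0.26, and quantile normalization to −0.10, −0.12 and −0.05. The split of calls at 5 h, 2724 higher and 6527 lower, became 5404 and 3183 after median centring and 3789 and 4822 after quantile normalization. At 1 h, 697 higher and 604 lower became 952 and 389, and 823 and 468, in that order of scalings. Between 1 h and 5 h, 2485 higher and 5484 lower became 4945 and 2837, and 3440 and 4021.

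Il10 (probe set 1450330_at), the cytokine gene of the group, read 56.9, 2534 and 7286 on the knockout arrays and 77.3, 3126 and 6215 on the wild-type arrays at 0 h, 1 h and 5 h. Every LPS array was above both 0 h arrays, and both 5 h arrays were above both 1 h arrays. At 1 h Il10 rose by 5.41 on the log2 scale (SE 0.20, 42.4-fold, adjusted p = 0.00218), the 25th largest rise of the 13100 probe sets. At 5 h it stood 6.66 above 0 h (SE 0.20, 101.5-fold, adjusted p = 0.000402), the 26th largest. The further rise between 1 h and 5 h was 1.26 (SE 0.20, adjusted p = 0.00793), made up of 1.52 in knockout and 0.99 in wild type. Without the knockout 1 h array the rise between 1 h and 5 h was 1.16, with an adjusted p of 0.0593, and with no filter on dim probe sets the adjusted p was 0.0562.

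The receptor genes moved little. Il10rb, which encodes the shared chain, read 5703, 5589 and 5700 in knockout and 6075, 5601 and 5744 in wild type. The 6 arrays lie close together, and its change was −0.07 at 1 h (95% interval −0.37 to 0.22, adjusted p = 0.664) and −0.04 at 5 h (95% interval −0.33 to 0.25, adjusted p = 0.752). The sign of that small change depends on how the arrays are scaled: at 5 h it was 0.72 after median centring (adjusted p = 0.00848) and −0.33 after quantile normalization (adjusted p = 0.0444).

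Il10ra, the ligand-binding chain, has 3 probe sets, and only 1448731_at was bright. It read 817, 998 and 1097 in knockout and 743, 1127 and 990 in wild type, so that all 4 LPS arrays were above both 0 h arrays. Its change was 0.44 at 1 h (SE 0.14, adjusted p = 0.125) and 0.42 at 5 h (SE 0.14, 1.34-fold). The 5 h call rests on an adjusted p of 0.0499976: leaving out any 1 of the 6 arrays ended it (adjusted p of 0.0609 to 0.263), as did a floor at the 10th percentile (0.0534) and no filter (0.104), while median centring gave a change of 1.18. The probe set 1437808_x_at read 50.4, 69.2 and 19.2 in knockout and 3.43, 43.0 and 44.4 in wild type, below its array's median each time. The third, 1456173_at, read 1.78 to 4.42 and never reached the floor.

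Stat3, the signal transducer, rose late. Probe set 1426587_a_at read 1680, 1884 and 8931 in knockout and 1447, 1937 and 6740 in wild type, and 1460700_at read 1266, 1582 and 6812 in knockout and 1187, 1325 and 5818 in wild type. On both probe sets the 5 h arrays were far above all others. The change at 1 h was 0.29 (SE 0.15, adjusted p = 0.263) and 0.24 (SE 0.11, adjusted p = 0.234) in that order. At 5 h it was 2.32 (SE 0.15, adjusted p = 0.000655) and 2.36 (SE 0.11, adjusted p = 0.000435), a rise of 4.98-fold and 5.13-fold. The third Stat3 probe set, 1424272_at, did not follow: it read 71.2, 72.7 and 72.0 in knockout and 62.3, 44.2 and 71.5 in wild type. Its change at 5 h was 0.11 (SE 0.21, adjusted p = 0.663), but 0.87 after median centring (adjusted p = 0.0166) and 0.82 after quantile normalization (adjusted p = 0.0322). The mean over the 3 probe sets, which was added after the values were seen, was 1.59 at 5 h.

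The promoter windows of the feedback inhibitors carry different short motifs, shown here to set beside the timing of the genes. RefSeq promoter sequences (GRCm38.p6, 250 bases before to 50 after an annotated start) were at hand for 4 of the 8 genes: Socs1, Socs3, Cish and Stat3. They were searched on both strands for a STAT motif, TTCNNNGAA, an interferon regulatory factor (IRF) motif, GAAANNGAAA, and an NF-κB motif, GGGNNNTTCC. Of all 32851 windows of 300 bases, 8.3%, 3.44% and 5.56% hold these in that order. Capitals mark the matches below, and each sequence is read 5′ to 3′ on the gene's strand. The Socs1 stretch holds a pair of overlapping IRF motifs at −83 to −74 and −77 to −68 from the start (chr16:10785537-10785636, minus strand), the Socs3 stretch 1 STAT motif at −154 to −146 (chr11:117969467-117969536, minus strand), and the Cish stretch a pair of STAT motifs at 1 to 9 and 12 to 20 (chr9:107296619-107296678, plus strand).
Socs1: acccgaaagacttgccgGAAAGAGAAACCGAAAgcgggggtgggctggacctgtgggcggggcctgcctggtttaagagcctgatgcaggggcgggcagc
Socs3: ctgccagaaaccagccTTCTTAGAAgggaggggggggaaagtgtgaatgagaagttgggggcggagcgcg
Cish: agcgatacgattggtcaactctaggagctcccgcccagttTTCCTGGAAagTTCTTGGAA
The Stat3 window held none of the 3 motifs, and the NF-κB motif was in 0 of the 4 windows. A match describes these letters only, and binding was not measured.

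Socs3, the inhibitor of gp130-type receptors, had the largest change of the group, and most of it was present at 1 h. Probe set 1416576_at read 85.3, 12897 and 12116 in knockout and 22.2, 12191 and 13205 in wild type. Probe set 1455899_x_at read 16.0, 10178 and 12159 in knockout and 52.6, 9698 and 13823 in wild type, and 1456212_x_at read 21.3, 9814 and 12055 in knockout and 78.9, 9094 and 10396 in wild type. Each LPS array was over 100 times its own 0 h signal on all 3 probe sets.

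The rise at 1 h was 8.17 (SE 0.56, adjusted p = 0.00629) on 1416576_at, at least 8.32 (SE 0.43, adjusted p = 0.00369) on 1455899_x_at and 7.85 (SE 0.59, adjusted p = 0.00738) on 1456212_x_at. These were the 6th, 3rd and 7th largest of 13100. At 5 h they were 8.18, at least 8.71 and 8.09 (adjusted p = 0.00072, 0.000445 and 0.000801). Between 1 h and 5 h the differences of 0.01, 0.38 and 0.24 did not pass (adjusted p = 0.987, 0.476 and 0.741), with 95% intervals of −1.52 to 1.54, −0.78 to 1.55 and −1.35 to 1.84. Without the knockout 1 h array the adjusted p at 1 h was 0.0595 for 1416576_at and 0.0731 for 1456212_x_at, while leaving out the wild-type 1 h array gave 0.067 and 0.0646. With no filter on dim probe sets all 3 of the 1 h calls were lost (adjusted p = 0.0757, 0.0628 and 0.0804), and the 3 calls at 5 h held (adjusted p = 0.0151, 0.0096 and 0.0163).

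The 3 Socs3 probe sets disagreed before LPS and agreed after it. At 0 h, knockout minus wild type was 1.94 on 1416576_at, but −1.53 or lower on 1455899_x_at, where the knockout signal lay under the floor, and −1.89 on 1456212_x_at. Their mean, added after the values were seen, was −0.49. At 1 h the same differences were 0.08, 0.07 and 0.11, and at 5 h −0.12, −0.19 and 0.21, so that the disagreement was limited to signals under 100. The direction of the Socs3 genotype difference in resting cells therefore depends on the probe set read. The suffix _x_at marks probe sets in which some probes also match other sequences, and its part in the disagreement was not tested.

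Socs1, the inhibitor of interferon signalling, rose in steps and reached its highest signal late. Its probe set 1450446_a_at read 23.0, 244 and 2345 in knockout and 13.6, 109 and 1724 in wild type. The wild-type 0 h signal was under the floor, so changes from 0 h are lower bounds. They were at least 2.99 at 1 h (SE 0.24, adjusted p = 0.00879) and at least 6.61 at 5 h (SE 0.24, adjusted p = 0.000402). With no filter on dim probe sets the 1 h call was lost (adjusted p = 0.0804). Socs1 rose again by 3.63 between 1 h and 5 h (SE 0.24, 12.3-fold, adjusted p = 0.00106). In knockout the rise was 3.41 in the first hour and 3.27 from 1 h to 5 h, and in wild type it was at least 2.57 and then 3.99.

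Cish, the gene of the STAT5 pathway inhibitor CIS, rose for a short time. Probe set 1448724_at read 141, 664 and 145 in knockout and 112, 805 and 191 in wild type. Both 1 h arrays stood far above the other 4, and both 5 h signals were a little above both 0 h signals. It rose by 2.54 at 1 h (SE 0.22, 5.82-fold, adjusted p = 0.00985) and then fell by 2.14 between 1 h and 5 h (SE 0.22, adjusted p = 0.00246). The difference left at 5 h was 0.40 (95% interval −0.19 to 0.99, adjusted p = 0.163), made up of 0.04 in knockout and 0.77 in wild type. It was 1.17 after median centring (adjusted p = 0.00361), 1.11 after quantile normalization (adjusted p = 0.00975) and 0.74 without the knockout 0 h array (adjusted p = 0.0466), so a return to the resting signal is not settled. The 1 h call was lost when either 1 h array was left out (adjusted p = 0.0824 for the knockout one and 0.0886 for the wild-type one) and with no filter (adjusted p = 0.0814).

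Socs2, the inhibitor of growth hormone receptor signalling, stayed dim. Probe set 1449109_at read 39.3, 15.7 and 27.9 in knockout and 38.2, 34.9 and 17.1 in wild type, and 1418507_s_at read 21.96, 22.5 and 19.4 in knockout and 20.3, 27.8 and 8.92 in wild type. Every one of these 12 signals was below its array's median, and no test was made.

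**Figure D2:**
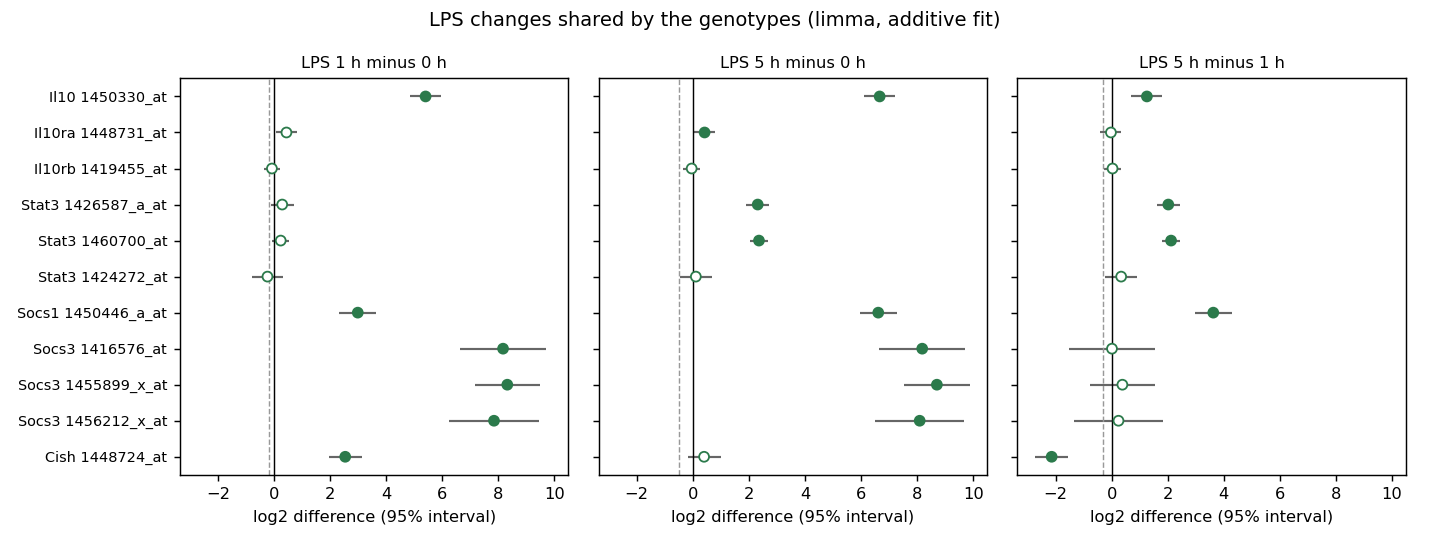
Log2 LPS changes of the 11 tested probe sets from the additive limma fit, for 1 h minus 0 h, 5 h minus 0 h and 5 h minus 1 h, with 95% intervals as bars; filled points had an adjusted p under 0.05, and the dashed line is the median of all 13100 probe sets. Socs3 lies near 8 at both times, Il10 and Socs1 are above 6 at 5 h, and 2 Stat3 probe sets are near 2 at 5 h only. Cish is the 1 probe set called lower from 1 h to 5 h.

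Whether loss of IκBβ changed these genes was asked first of the difference shared by the 3 times. Limma called 0 of the 11 member probe sets higher and 0 lower in knockout, against 0% higher and 0.0305% lower over all probe sets; 1 of the 11 had an unadjusted p under 0.05, as had 1106 of all 13100. That 1 was Socs1, with a difference of 0.65 (SE 0.20, 1.57-fold, with the wild-type 0 h signal at the floor, 95% interval 0.11 to 1.19, adjusted p = 0.582), higher in knockout in 3 of 3 pairs of arrays. Il10 stood at −0.17 (95% interval −0.62 to 0.28, adjusted p = 0.747), lower in 2 of 3 pairs. For Il10ra and Il10rb the differences were 0.04 and −0.04, with intervals of −0.27 to 0.34 and −0.27 to 0.20. The 3 Stat3 probe sets gave 0.19, 0.19 and 0.31, with intervals that reach from −0.15 to 0.77. Cish gave −0.12 (95% interval −0.60 to 0.37). The widest intervals belonged to Socs3, at −0.62 to 1.88, −1.50 to 0.41 and −1.82 to 0.78 for the 3 probe sets in the order above.

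At a single time each difference rests on 1 array a side and has no test. At 0 h 1 member probe set was at least 2-fold higher in knockout and 2 were at least 2-fold lower, all of them Socs3, against 1.02% and 1.15% of all probe sets. At 1 h 1 was 2-fold higher, Socs1, with 244 in knockout and 109 in wild type (1.16), and 0 were lower, against 1.18% and 1.92%. At 5 h 0 were 2-fold higher and 0 lower, against 1.92% and 2.71%, and Socs1 stood at 0.44. Il10 differed by −0.44, −0.30 and 0.23 at the 3 times, and Cish by 0.33, −0.28 and −0.40.

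The size of the LPS response itself was also set side by side. For Socs1 the wild-type response starts from the floor and is a lower bound, so knockout minus wild-type response was at most 0.83 at 1 h and at most 0.11 at 5 h, and its direction is not given by these arrays. Over all probe sets the SD of this quantity was 0.46 at 1 h and 0.55 at 5 h. For Il10 the difference was 0.14 at 1 h and 0.67 at 5 h, and for Cish −0.61 and −0.73. Neither Stat3 probe set that rose differed by more than 0.26 at either time. The 3 Socs3 probe sets gave −1.86, at least 1.59 and 2.00 at 1 h, which carry the disagreement at 0 h described above.

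**Figure D3:**
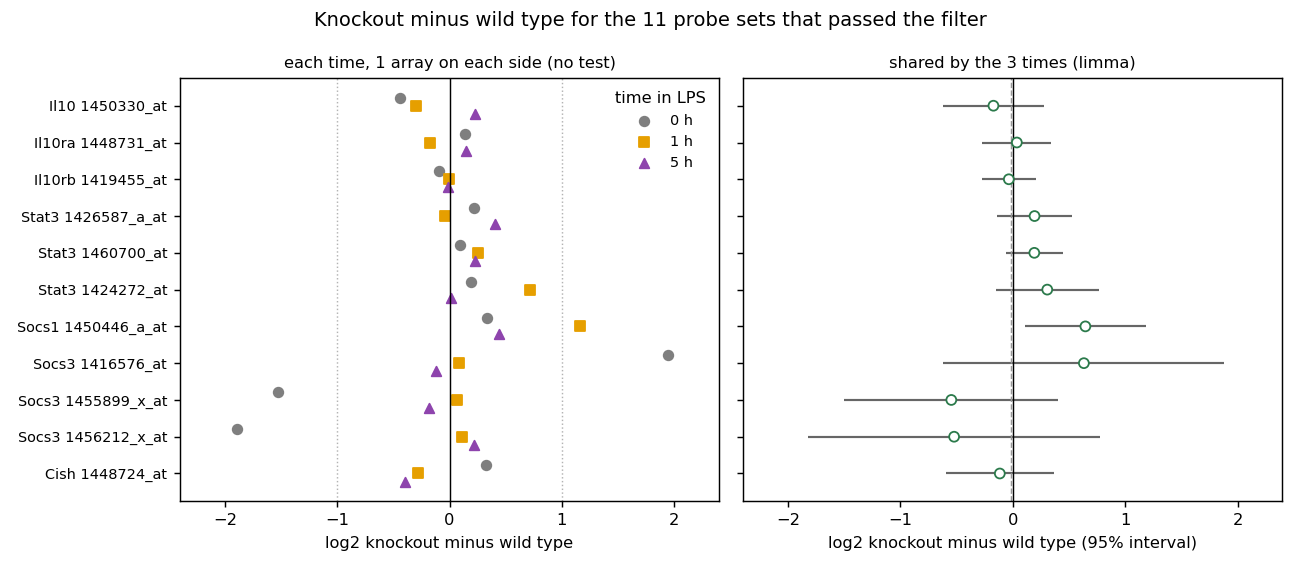
Left, log2 knockout minus wild type at 0 h (circles), 1 h (squares) and 5 h (triangles) for the 11 tested probe sets, 1 array a side and no test, with dotted lines at 2-fold; right, the difference shared by the 3 times from limma with its 95% interval, where no point passed. The 0 h circles of Socs3 lie at 1.94, −1.53 and −1.89 while its 1 h and 5 h values stay within 0.21 of 0, and Socs1 is at 1.16 at 1 h.

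Genes with the nearest course over the 6 arrays were found among 7506 others by the distance between log2 signals centred on each gene's mean. The nearest to Il10 were the chemokine genes Ccl12 (distance 0.76) and Ccl7 (1.05) and the nicotinic acid receptor gene Hcar2 (1.30). Ccl12 read 107, 3773 and 12655 in knockout and 105, 3187 and 11553 in wild type. Nearest to Socs1 were Mxd1, a MYC antagonist (0.92), and the interferon-inducible Oasl1 (1.07) and Mx2 (1.23). Socs3 was represented by probe set 1416576_at, where knockout minus wild type at 0 h was 1.94. The other Socs3 probe sets gave −1.53 or lower and −1.89, and distances from them were not calculated. By 1416576_at, Socs3 lay nearest to Il1b (1.16), Serpinb2 (1.63) and Il1a (1.67). Cish lay nearest to Sgms1 (0.62), Prdm1 (0.67) and Tlr2 (0.67). Prdm1, which encodes the repressor Blimp-1, read 576, 4089 and 988 in knockout and 531, 3361 and 924 in wild type, with the same 1 h peak as Cish. At 0 h both signals of Serpinb2 (6.79 and 1.79) and Il1a (0.80 and 6.70) were under the floor of 18.3. So were both of Mxd1 (17.9 and 7.72, knockout first each time). The wild-type 0 h signals of Socs1 (13.6) and Mx2 (17.4) were under it too. Distances that involve these genes therefore depend in part on the floor. All the distances describe 6 arrays that share the LPS time course and carry no test.

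Other genes of the pathway, each represented by its brightest tested probe set, were read against the median of 7507 genes, −0.18 at 1 h and −0.57 at 5 h, and against the 5.32% of all probe sets called higher and 4.61% lower at 1 h and the 20.8% higher and 49.8% lower at 5 h. Among JAK kinases and the other STATs 2 of 9 rose at 1 h and 1 fell, with a median of −0.06, and 5 rose and 1 fell at 5 h, with a median of 0.58. Jak2, which encodes a receptor-bound kinase, was up by 1.83 at 1 h and 3.63 at 5 h (adjusted p = 0.00634 and 0.000402). Stat2, of the interferon-activated complex, fell by 0.74 at 1 h (adjusted p = 0.0375), a call lost after median centring (adjusted p = 0.079) and quantile normalization (adjusted p = 0.0529). Stat6, the IL-4 signal transducer, fell by 1.19 at 5 h (adjusted p = 0.00141).

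Of 7 other SOCS family and SOCS box partner genes, 1 rose at 1 h, Socs4 (0.93, adjusted p = 0.0405). At 5 h 3 rose, with Eloc, the elongin C gene, at 1.13, and 2 fell, with Socs5 at −1.89. The list's median at 5 h was −0.23, but 0.53 after median centring. That scaling also moved the median of all 13100 probe sets at 5 h, from −0.48 to 0.28. Phosphatases and PIAS inhibitors (9 genes) had 0 called at 1 h. At 5 h 4 rose, with the phosphatase gene Ptpn1 at 1.04, and Pias3, an inhibitor of STAT3, fell by 1.45 (adjusted p = 0.00204). The median was 0.22, but 0.99 after median centring, where 7 of the 9 rose. The list of IL-10 family cytokines and related receptors had 5 tested genes: the cytokine gene Il20 and the interferon receptor genes Ifnar1, Ifnar2, Ifngr1 and Ifngr2. Il20, with signals of 9.50 to 76.2, was not called at 1 h or 5 h (adjusted p = 0.283 and 0.101). All calls were of interferon receptor genes. Ifnar1 rose at 1 h (0.85), 3 rose at 5 h with Ifnar1 at 1.59, and Ifngr1 fell by 2.37 (adjusted p = 0.000435).

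Genes known to be induced by IL-10 and STAT3 in macrophages gave 7 of 11 risen and 0 fallen at 1 h (median 1.30), and 8 risen and 1 fallen at 5 h (median 2.06). Dusp1, which encodes a MAP kinase phosphatase, stood 4.76 higher at 1 h (adjusted p = 0.00157). Il1rn, which encodes the IL-1 receptor antagonist, stood 5.96 higher at 5 h (adjusted p = 0.000406). The scavenger receptor gene Cd163 fell by at least 2.54 at 5 h (adjusted p = 0.00167), as both 5 h signals were under the floor. Several of these genes also respond to LPS directly, and the arrays do not separate the routes.

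Among 11 genes that regulate Il10 transcription or mRNA, 5 rose and 1 fell at 1 h (median 0.08). Prdm1 rose by 2.74 (adjusted p = 0.00275), and Crem fell by 0.64 (adjusted p = 0.0497), a call lost after median centring (adjusted p = 0.128). At 5 h 6 rose and 2 fell (median 0.58): Zfp36, the mRNA decay factor gene, rose by 2.77, and Bhlhe40, the gene of a repressor of Il10 in T cells, fell by 1.78 (adjusted p = 0.00234). At 1 h Bhlhe40 had stood 1.77 above 0 h (adjusted p = 0.0185). Receptors that signal through STAT3 or STAT5 (7 genes) had 0 called at 1 h. At 5 h 5 fell, with the IL-6 receptor gene Il6ra at −3.81 (adjusted p = 0.0021), and Csf3r rose by 0.88; the median was −0.58, close to that of all genes, and 0.18 after median centring, where 3 fell. Median centring at 5 h also gave 7 risen and 1 fallen JAK and STAT genes, 4 and 1 SOCS partner genes, and 8 and 2 regulators of Il10. It gave 4 and 1 for Il20 and the interferon receptors, and 10 and 1 for genes known to be induced by IL-10. Over all 13100 probe sets median centring gave 5404 higher and 3183 lower at 5 h, in place of 2724 and 6527. Their median moved from −0.48 to 0.28, so these list counts and medians are to be read against that shift. Over the 3 times, 0 genes of these 7 lists were called between knockout and wild type. In that comparison 0% of all probe sets were called higher and 0.0305% lower. The extreme differences were 0.62 for Il6ra and −0.12 for Csf2rb among the receptors, and 0.45 for Sp3 and −0.18 for Creb1 among regulators of Il10. Among genes known to be induced by IL-10 they were 0.45 for Il1rn and −0.37 for Cd163. They were 0.29 for Stat5a and −0.37 for Stat4, 0.39 for Socs6 and −0.18 for Socs5, 0.23 for Pias2 and −0.22 for Pias3, and 0.18 for Ifnar1 and −0.01 for Ifnar2 in the other 4 lists.

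**Figure D4:**
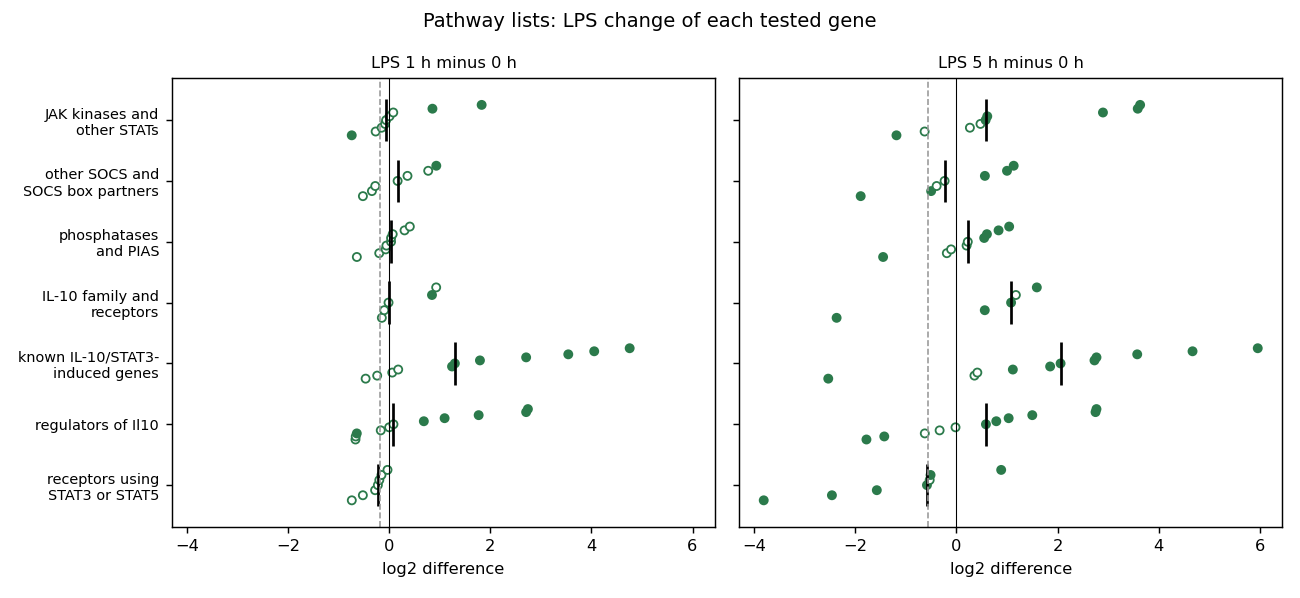
Log2 LPS change at 1 h (left) and 5 h (right) of each tested gene of the 7 pathway lists, 1 point a gene, filled where the adjusted p was under 0.05; black bars are list medians and the dashed line is the median of 7507 genes. Genes known to be induced by IL-10 and STAT3 have the highest medians, 1.30 and 2.06, and most receptors that use STAT3 or STAT5 lie below 0 at 5 h. The lists were chosen with earlier results of these data known, and induction by IL-10 in these cells was not tested.

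Sums of B cell and neutrophil markers fell with time in both genotypes. At each time these sums were higher in knockout and the dendritic cell sum was lower. Mast cell and fibroblast sums went both ways between the genotypes. Each sum rests on 1 array a group and was not tested. The 5 B cell markers on the array, nearly all of it Ighm, summed to 3698, 2674 and 370 in knockout and 3523, 2437 and 348 in wild type, with Pax5 under the floor on all arrays. The 5 neutrophil markers, mostly Mmp8, summed to 2393, 1971 and 985 in knockout and 1596, 1386 and 690 in wild type, with Ltf under the floor on all arrays. Dendritic cell markers summed to 543 to 635 in knockout and 646 to 662 in wild type, mast cell markers to 68.1 to 117.8 in knockout and 58.8 to 125.5 in wild type, and fibroblast markers to 92.4 to 195.7 in knockout and 150.4 to 214.1 in wild type. Single markers could go against their sum. From 0 h to 5 h the neutrophil marker Camp went from 54.5 to 88.6 in knockout and from 29.7 to 92.9 in wild type. The dendritic cell marker Ccr7 went from 92.9 to 235.7 and from 15.2 to 140.8. Fewer cells of a type and less RNA per cell cannot be told apart in such RNA, and the part of these cells in the members' changes was not tested.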

How the data were processed

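Macrophage RNA of 2 genotypes and 3 times was hybridised to 6 Affymetrix arrays. What the authors deposited is intensity, MAS5 signals on a linear scale per the submitters' processing notes. No source used here gives the MAS5 version or scaling target. Of 22690 deposited probe sets 64 controls were left out; GEO's platform annotation gives 1 symbol to 20380 of the rest, several to 691 and none to 1555. Signals were raised to a floor (25th percentile, 18.3) and taken to log2. Probe sets above their array's median on at least 1 array were fitted with limma 3.58.1 (R 4.3.3), genotype and time as additive terms, with 2 residual degrees of freedom and a prior of 2.23, and p-values were adjusted over all 13100 by Benjamini-Hochberg at 0.05. Unlike a fit on 1 probe set for each gene, this keeps probe sets of a gene apart. Every probe set of the members is named, other genes by the extremes of their list or by distance. The members and lists were chosen with earlier results of these data known.

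On simulated data with 13100 probe sets, the 1 h test recovered 60 of 100 changes of 2-fold and 95 of 100 of 4-fold, with 8 false calls. The simulation held far fewer changes than the 697 higher and 604 lower calls at 1 h, so its rates need not hold for the arrays. Precision is limited by the number of arrays. Alternatives were other floors (10th percentile, 50), no filter, median centring, quantile normalization, 1 probe set for each gene, time without genotype, each genotype alone, and leaving out each array.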

Additional observations from a re-analysis of the deposited data

How the results depend on the processing

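Most calls held, but some depend on the filter, the scaling or 1 array. Without the filter on dim probe sets, with 22626 tested, 1 member (Il10, adjusted p = 0.0489) was called higher at 1 h in place of 6; leaving out an array gave 3 to 6. With 1 probe set for each gene 5 were called higher at 5 h, since Stat3 and Socs3 then count once each. Median centring gave 7 higher between 1 h and 5 h, and quantile normalization 1 lower at 5 h against 0 h, Il10rb; a floor of 50 left 0 members 2-fold higher and 0 lower at 0 h between the genotypes. Il10, Socs1 and the brighter Stat3 probe sets kept their direction for LPS in every alternative run.

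Several changes turned sign. After median centring Il10rb was at 0.11 (1 h), 0.72 (5 h, adjusted p = 0.00848) and 0.019 (knockout minus wild type), and Il10ra at 0.56 between 1 h and 5 h. Quantile normalization gave 0.066 for Il10ra, −0.19 for Il10rb and −0.10 for Socs3 1416576_at there. Leaving out 1 array gave ranges of −0.54 to 0.075 (1 h) and −0.11 to 0.33 (5 h) for Stat3 1424272_at and −0.083 to 0.0011 for Il10rb at 5 h. Between 1 h and 5 h they were −0.18 to 0.13 for Il10ra, and −0.56 to 0.58, −0.079 to 0.85 and −0.31 to 0.80 for Socs3 1416576_at, 1455899_x_at and 1456212_x_at. For knockout minus wild type they were −0.019 to 0.14 for Il10ra, −0.021 to 1.01 for Socs3 1416576_at, −0.89 to 0.16 for 1456212_x_at and −0.34 to 0.026 for Cish. The cause of these shifts was not tested. Each genotype and time had 1 array, and the labels give no replicate numbers. No pairing was possible beyond the time term, which compares knockout with wild type within each time.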
